A study of Mus musculus with 18 samples.

Results

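Transcripts of 8 proteasome assembly chaperones were measured in NIH-3T3 cells, an established line of mouse embryonic fibroblasts. The genes were taken by symbol from a table of 23420 genes. They are Pomp, Psmg1, Psmg2, Psmg3 and Psmg4, which act in assembly of the 20S core, and Psmd5, Psmd9 and Psmd10, which act in assembly of the base of the 19S cap. A further chaperone of the 19S base that was on the list of names is not analysed here. RNA sequencing was done on 18 cultures, with 3 biological replicates in each of 6 groups. The groups were the wild-type (WT) line and the Nrf1-KO line, each given DMSO as vehicle or 200 nM carfilzomib (CFZ), with CFZ cells collected after 6 h or 24 h, and no time is given for DMSO. The knockout was made with CRISPR/Cas9 in NIH-3T3 cells, and the sources used here do not say whether it is a single clone, so the genotype and any other difference between the 2 lines cannot be told apart. All 8 genes passed the filter on low counts, as did 11762 genes in all.

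The 20S core is a barrel of alpha and beta rings that holds the proteolytic sites, and the 19S cap recognises, unfolds and feeds in ubiquitinated proteins. Neither is put together without help. Psmg1 and Psmg2 form a dimer, as do Psmg3 and Psmg4, and these dimers guide the building of the alpha ring. Pomp then brings in the beta subunits and is degraded as the first substrate of the finished core. In the 19S base, Psmd5, Psmd9 and Psmd10 each bind particular ATPase subunits during assembly. CFZ is an irreversible inhibitor of the chymotrypsin-like site of the core. Nrf1, encoded by Nfe2l1, is a membrane-bound transcription factor that is normally degraded by the proteasome and that drives transcription of proteasome subunit genes when the proteasome is inhibited.

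Total counts ranged from 8333148 to 23917081 per library. The deposited counts were scaled by edgeR's TMM factors to CPM (read counts relative to library size), and differences were tested with edgeR's quasi-likelihood test with Benjamini-Hochberg adjustment over all genes tested. A gene with an adjusted p under 0.05 is called changed, with no minimum fold. Nfe2l1 ranged from 437.3 to 456.9 CPM in the WT DMSO libraries and from 174.3 to 184.6 CPM in the Nrf1-KO DMSO libraries, a log2 difference of -1.31. At 6 h of CFZ it ranged from 627.7 to 650.4 CPM in WT and from 413.5 to 427 CPM in Nrf1-KO, where it had risen 2.32-fold (1.43-fold in WT, interaction 0.70, edgeR adjusted p = 1.6e-13) to just below the level of WT DMSO. At 24 h it ranged from 555.2 to 580 CPM in WT and from 201.4 to 209.5 CPM in Nrf1-KO. In each treatment the Nrf1-KO libraries lay below those of WT, but the transcript was present in all of them. Whether its reads cover the edited part of the gene cannot be read from counts per gene. All 10 fibroblast markers examined were above 1 CPM in every group. Their summed level ranged from 33100 to 36000 CPM in WT DMSO and from 8240 to 8520 CPM in WT at 24 h of CFZ, and from 27700 to 34000 CPM in Nrf1-KO DMSO and from 11100 to 13200 CPM in Nrf1-KO at 24 h. Most of these sums was Col1a1, Col1a2 and Fn1. In WT each marker had a lower mean at 24 h than in DMSO. In Nrf1-KO Vim (3400 CPM in DMSO and 3450 CPM at 24 h) and Pdgfra (264 and 284 CPM) did not fall, and the other markers had lower means at 24 h. The summed level of 4 epithelial markers went from between 5.9 and 6.36 CPM in WT DMSO to between 0.36 and 0.813 CPM in WT at 24 h, and from between 10.8 and 13 CPM to between 0.333 and 0.698 CPM in Nrf1-KO. Nearly all of it was Cdh1, as Epcam and Krt18 were at 0 in every library. For 3 endothelial markers the sum went from between 0.295 and 0.456 to between 2.54 and 3.47 CPM in WT and from between 0.386 and 0.591 to between 3.38 and 3.83 CPM in Nrf1-KO, mostly Cdh5. For 2 haematopoietic markers, Cd68 and Ptprc, it went from between 0.456 and 0.928 to between 2.74 and 3.78 CPM in WT and from between 1.64 and 1.97 to between 5.56 and 5.77 CPM in Nrf1-KO, and Ptprc was at 0 in the WT libraries and had group means of 0.891 to 1.22 CPM in Nrf1-KO. The part of these shifts in the results was not tested. In such bulk samples, fewer cells with a transcript and less of it per cell cannot be told apart.

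The members lie apart in the genome. In GENCODE release M21 on GRCm38, Pomp is at chr5:147860461-147876456 on the plus strand, Psmg3 at chr5:139823592-139826885 on the minus strand and Psmd9 at chr5:123169413-123250131 on the plus strand. Psmg1 is at chr16:95979933-95990960 on the minus strand and Psmg4 is at chr13:34162964-34178173 on the plus strand. Psmd5 is at chr2:34849734-34874968 and Psmd10 at chrX:140948429-140956728, each on the minus strand. Of the exonic bases of Psmd9, 25.5% lie opposite exons of Gm26745, and 9.68% of those of Psmg3 are shared with Gm26938 on the same strand. The use of strand in the authors' counting is not given in the sources used here, so reads in the Psmd9 stretch could belong to either gene. Reads in the Psmg3 stretch could belong to either gene whatever the use of strand. The exons of the other 6 genes overlapped no other gene.

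Promoters of the 3 members with the largest differences in response between the lines at 24 h are shown, since the comparison of the lines turns on a transcription factor. Each is the 250 bases before the RefSeq start site on GRCm38.p6, read along the gene's strand. These start sites are not the outer ends of the GENCODE genes given above. The windows of Psmd5 and Psmd9 lie within the GENCODE spans, and that of Pomp overlaps the GENCODE start. Other start sites of these genes were not searched. Capitals mark the letters TGACNNNGC, the core of the antioxidant response element that Nrf1 and related factors bind.
Pomp, chr5:147860378-147860627, plus strand: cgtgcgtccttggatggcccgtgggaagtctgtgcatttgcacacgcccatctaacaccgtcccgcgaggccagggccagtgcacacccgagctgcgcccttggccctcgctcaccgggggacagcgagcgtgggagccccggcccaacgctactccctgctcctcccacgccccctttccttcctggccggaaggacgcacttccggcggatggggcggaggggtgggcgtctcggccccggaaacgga
Psmd5, chr2:34870963-34871212, minus strand: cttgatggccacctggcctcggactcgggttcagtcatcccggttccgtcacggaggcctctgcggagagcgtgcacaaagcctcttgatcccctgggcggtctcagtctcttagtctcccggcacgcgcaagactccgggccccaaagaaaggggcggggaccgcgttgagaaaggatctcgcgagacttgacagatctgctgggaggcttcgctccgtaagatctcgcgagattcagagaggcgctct
Psmd9, chr5:123227940-123228189, plus strand: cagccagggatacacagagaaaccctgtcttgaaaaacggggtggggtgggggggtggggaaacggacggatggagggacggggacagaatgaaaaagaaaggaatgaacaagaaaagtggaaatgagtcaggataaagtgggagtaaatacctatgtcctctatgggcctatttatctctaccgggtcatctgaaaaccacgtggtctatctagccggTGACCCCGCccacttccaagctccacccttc
Of the 8 members, 7 had an entry in the RefSeq promoter table. The core was searched on both strands and was found in 1 of these 7, Psmd9, at -31 to -23 from the start site. It was also found in 5 of 26 genes of constitutive proteasome subunits with an entry (Adrm1, Psmb5, Psmb6, Psmc6 and Psmd12) and in 10.2% of all 32851 promoters. The core TGATGNAA of the C/EBP-ATF element was found in none of the 7 and in 3.45% of all promoters, and the heat shock core GAANNTTC in none of the 7 and in 6.69%. A match describes letters only, and the absence of these letters from 250 bases says nothing about binding elsewhere.

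**Figure D1:**
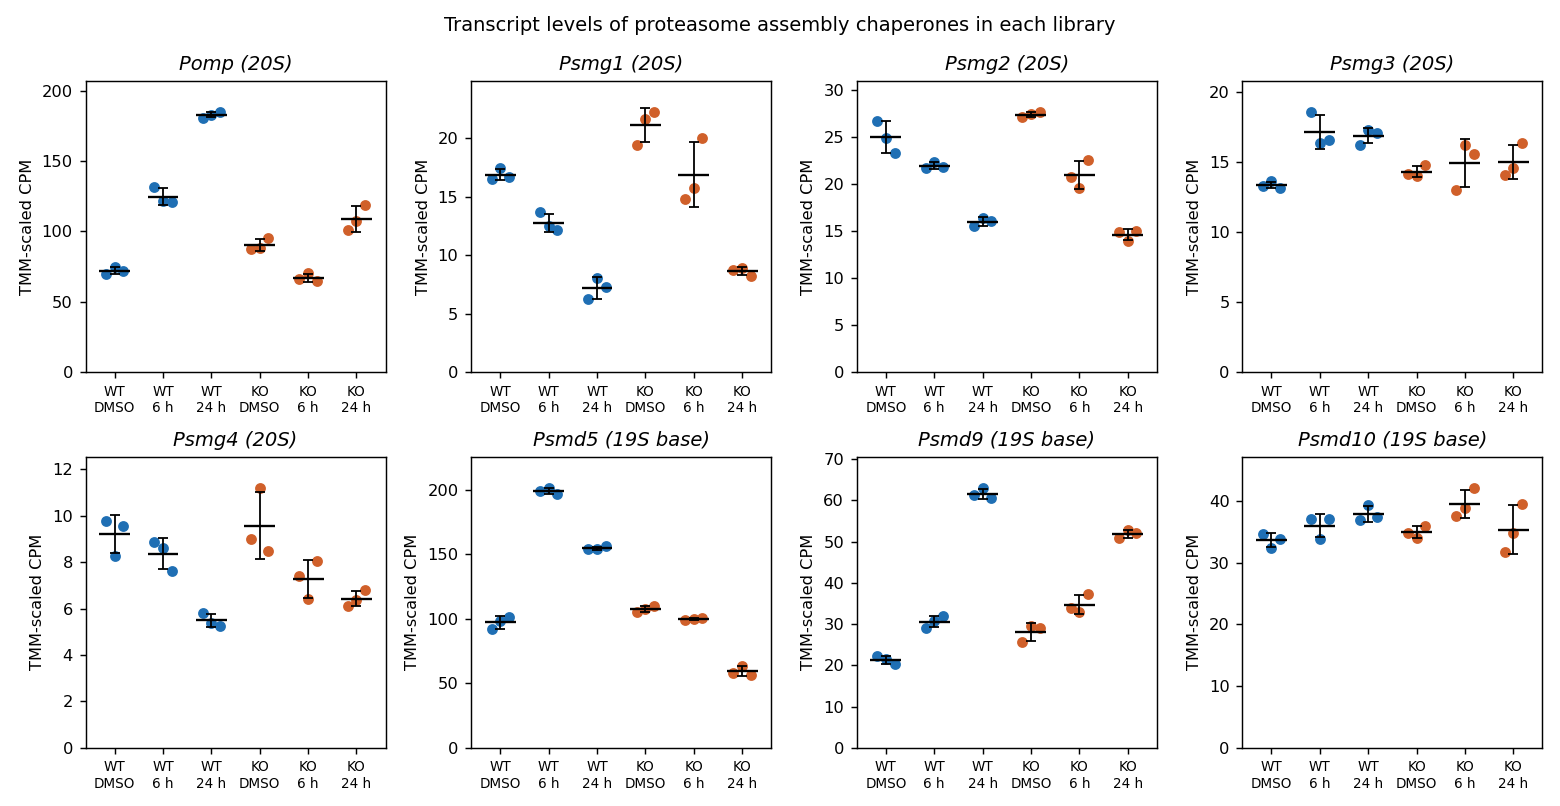
TMM-scaled CPM (y axis, from 0) of each assembly chaperone in the 18 libraries, in WT (blue) and Nrf1-KO (orange) cells in DMSO and after 6 h or 24 h of CFZ. Points are libraries, and bars are the mean and SD of 3. Pomp reached 180.8 to 184.6 CPM in WT at 24 h and 100.7 to 118.8 CPM in Nrf1-KO, and Psmg1 was under 9 CPM in every library at 24 h.

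The chaperones did not move together under CFZ. In WT cells Pomp, Psmg3, Psmd5 and Psmd9 rose at 6 h and Psmg1 and Psmg2 fell. These are 4 of 8 called higher and 2 called lower, where 71.9% of all genes tested were called (35.6% higher and 36.2% lower). At 24 h in WT cells Psmd10 was called higher as well and Psmg4 lower, which made 5 higher and 3 lower beside 83.8% of all genes (43.2% higher and 40.5% lower). In the Nrf1-KO cells the balance differed. At 6 h Psmd9 and Psmd10 were called higher and Pomp, Psmg1, Psmg2, Psmg4 and Psmd5 lower, 2 and 5 of 8 beside 69.5% of all genes (34.5% higher and 35% lower). At 24 h Pomp and Psmd9 were higher and Psmg1, Psmg2, Psmg4 and Psmd5 lower, 2 and 4 of 8 beside 85.5% of all genes (44.4% higher and 41.1% lower). With so many genes called, the size and the direction of each member's change say more than the count of calls.

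**Figure D2:**
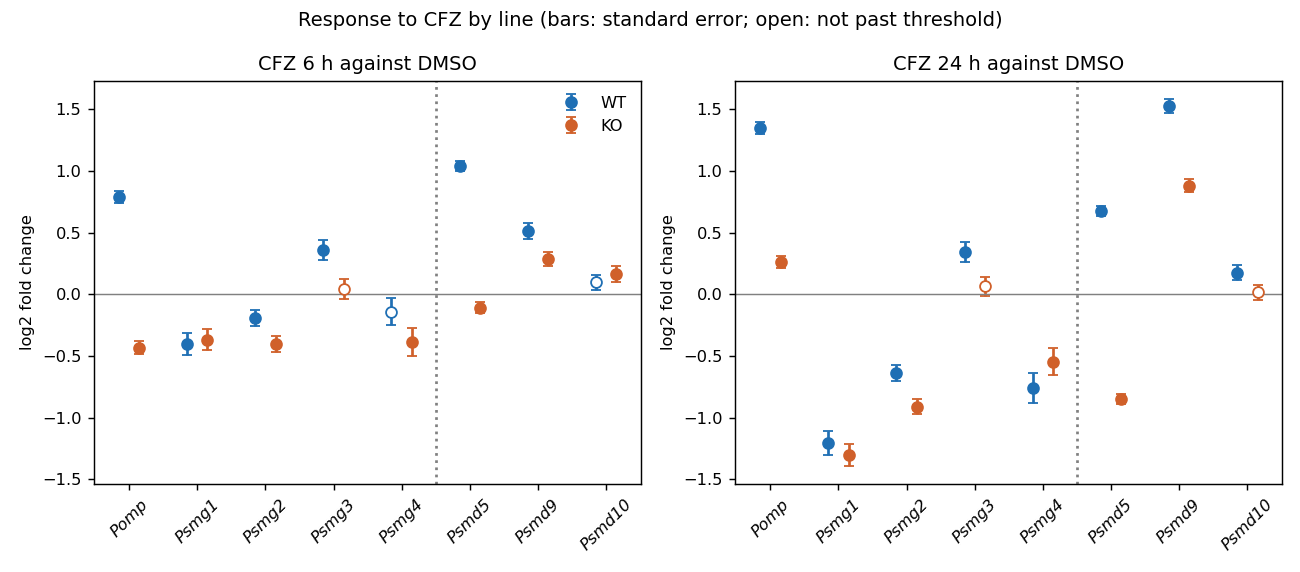
Log2 fold change of CFZ against DMSO (y axis) for each chaperone at 6 h and at 24 h, in WT (blue) and Nrf1-KO (orange) cells, with the standard error as bars. Open points did not pass the test, and the dotted line parts the 20S from the 19S chaperones. Pomp and Psmd5 lay far apart between the lines at both times, and Psmg1 and Psmg2 lay below 0 in both lines.

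Pomp, the maturation factor of the core, showed the largest response among the 20S chaperones in WT cells. Its level was 69.94, 74.64 and 71.73 CPM in the WT DMSO libraries, 131.6, 121.4 and 120.7 CPM at 6 h and 180.8, 182.9 and 184.6 CPM at 24 h. The Nrf1-KO libraries had 87.6, 88.03 and 95.55 CPM in DMSO, 65.82, 70.2 and 64.99 CPM at 6 h and 100.7, 107.2 and 118.8 CPM at 24 h. The WT groups rose in steps that did not overlap, while the Nrf1-KO groups dipped at 6 h and recovered past their DMSO level at 24 h, again without overlap. The log2 change from DMSO in WT was 0.79 at 6 h (SE 0.0494, edgeR adjusted p = 2.9e-15) and 1.34 at 24 h (SE 0.0476, edgeR adjusted p = 3.1e-22), or 1.73-fold and 2.54-fold. The log2 change in Nrf1-KO was -0.43 at 6 h (SE 0.053, edgeR adjusted p = 1.5e-08) and 0.26 at 24 h (SE 0.0475, edgeR adjusted p = 7.3e-06). The rise at 24 h in Nrf1-KO was the only one of these 4 calls lost in an alternative, with library size alone as the scaling (log2 change 0.0806, edgeR adjusted p = 0.108, range over the alternatives 1.05e-06 to 0.108). The same change was 0.16 without Nrf1-KO replicate 3 at 24 h and 0.16 with upper-quartile scaling, and it was called in both.

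Between 6 h and 24 h of CFZ, Pomp rose in both lines, by 0.55 on the log2 scale in WT and by 0.70 in Nrf1-KO. Pomp was the highest of the members per kilobase of its principal transcript in every group, at 45.7 ± 1.52 CPM per kb in WT DMSO (SD, n = 3).

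Psmg1 and Psmg2, the partners of the first dimer, went the other way. Psmg1 was at 16.48, 17.42 and 16.71 CPM in WT DMSO, 13.65, 12.45 and 12.13 CPM at 6 h and 6.201, 8.035 and 7.252 CPM at 24 h. The Nrf1-KO libraries had 19.44, 21.64 and 22.21 CPM in DMSO, 14.82, 15.75 and 20.02 CPM at 6 h and 8.732, 8.876 and 8.245 CPM at 24 h. Every 24 h library was below every DMSO library of its line, and only the Nrf1-KO groups at DMSO and 6 h overlapped, through the third replicate at 6 h. Psmg1 fell at 24 h to 0.434 times the DMSO level in WT (log2 change -1.21, SE 0.101, edgeR adjusted p = 1.4e-12) and to 0.406 times in Nrf1-KO (log2 change -1.30, SE 0.0888, edgeR adjusted p = 9.1e-15). At 6 h the log2 changes were -0.40 and -0.37, and each passed the test.

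Psmg2 was at 26.73, 24.86 and 23.34 CPM in WT DMSO, 21.69, 22.35 and 21.84 CPM at 6 h and 15.55, 16.43 and 16.05 CPM at 24 h. In Nrf1-KO cells it was at 27.12, 27.43 and 27.65 CPM in DMSO, 20.77, 19.54 and 22.54 CPM at 6 h and 14.93, 13.98 and 14.97 CPM at 24 h. The groups of each line came down in order and did not overlap. The log2 changes at 24 h were -0.64 in WT (SE 0.0655, edgeR adjusted p = 1.5e-10) and -0.91 in Nrf1-KO (SE 0.0631, edgeR adjusted p = 1.3e-14). At 6 h they were -0.19 in WT and -0.40 in Nrf1-KO, and the WT call was lost without WT DMSO replicate 1 (edgeR adjusted p = 0.0069 with it and 0.0974 without it, range over the alternatives 2.47e-05 to 0.0974).

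Psmg3 and Psmg4, the partners of the second dimer, did not move alike. Psmg3 was at 13.29, 13.64 and 13.19 CPM in WT DMSO, 18.58, 16.38 and 16.57 CPM at 6 h and 16.27, 17.33 and 17.11 CPM at 24 h. The Nrf1-KO libraries had 14.18, 14 and 14.77 CPM in DMSO, 12.99, 16.22 and 15.59 CPM at 6 h and 14.08, 14.59 and 16.36 CPM at 24 h. Both CFZ groups of the WT line were above WT DMSO without overlap, whereas the 3 Nrf1-KO groups overlapped. Psmg3 rose in WT by 0.36 on the log2 scale at 6 h (SE 0.0806, edgeR adjusted p = 0.00021) and by 0.34 at 24 h (SE 0.0799, edgeR adjusted p = 0.00023). The Nrf1-KO differences of 0.04 and 0.06 did not pass the test, and they turned below 0 with library size alone and with upper-quartile scaling.

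Psmg4 was the least covered member, with 57 to 220 reads per library. It was at 9.788, 8.267 and 9.547 CPM in WT DMSO, 8.873, 8.592 and 7.607 CPM at 6 h and 5.794, 5.396 and 5.268 CPM at 24 h. In Nrf1-KO cells it was at 8.996, 11.2 and 8.483 CPM in DMSO, 7.411, 6.41 and 8.033 CPM at 6 h and 6.127, 6.38 and 6.786 CPM at 24 h. All 24 h libraries lay below the DMSO libraries of their line, and the WT groups at DMSO and 6 h overlapped. Psmg4 fell at 24 h by 0.76 on the log2 scale in WT (SE 0.12, edgeR adjusted p = 9e-07) and by 0.55 in Nrf1-KO (SE 0.109, edgeR adjusted p = 3.4e-05). At 6 h the log2 difference was -0.14 in WT (edgeR adjusted p = 0.25), which passed the test only with library size alone and with upper-quartile scaling. In Nrf1-KO at 6 h it was -0.39 (edgeR adjusted p = 0.0041), a call lost without the second Nrf1-KO replicate at 6 h (edgeR adjusted p = 0.0508, range over the alternatives 0.000294 to 0.0508).

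Among the 19S chaperones, Psmd5, which binds the ATPase Psmc2 and keeps the base from joining the core early, showed the widest gap between the lines. It was at 91.79, 98.2 and 101.2 CPM in WT DMSO, 199.1, 201.3 and 196.6 CPM at 6 h and 153.6, 154 and 156 CPM at 24 h. The Nrf1-KO libraries had 105, 107.2 and 109.5 CPM in DMSO, 99.28, 99.54 and 100.2 CPM at 6 h and 58.1, 63.57 and 56.51 CPM at 24 h. Psmd5 thus peaked at 6 h in WT and declined in Nrf1-KO, with no overlap among the 3 groups of either line. It rose 2.05-fold in WT at 6 h (log2 change 1.04, SE 0.038, edgeR adjusted p = 2.7e-21) and 1.6-fold at 24 h (log2 change 0.67, SE 0.0386, edgeR adjusted p = 1.1e-16), and the fall from 6 h to 24 h was called as well (log2 change -0.36, edgeR adjusted p = 2.5e-10). In Nrf1-KO it fell to 0.554 times the DMSO level at 24 h (log2 change -0.85, SE 0.0417, edgeR adjusted p = 1.5e-18). The fall at 6 h was small (log2 change -0.11, edgeR adjusted p = 0.02) and was lost without Nrf1-KO DMSO replicate 3 or without replicate 1 or 2 of Nrf1-KO at 6 h (edgeR adjusted p = 0.0803, 0.0585 and 0.0552, range over the alternatives 2.6e-05 to 0.0803).

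Psmd9, which binds ATPase subunits of another module of the ring, rose in both lines and at both times. It was at 22.26, 21.49 and 20.35 CPM in WT DMSO, 29.12, 30.66 and 31.86 CPM at 6 h and 61.2, 63.02 and 60.62 CPM at 24 h. In Nrf1-KO cells it was at 25.61, 29.53 and 29.15 CPM in DMSO, 33.97, 32.9 and 37.29 CPM at 6 h and 50.84, 52.76 and 52.2 CPM at 24 h. The groups of each line stepped up without overlap, from a higher start and to a lower end in Nrf1-KO than in WT. The rise was 2.88-fold in WT at 24 h (log2 change 1.52, SE 0.0552, edgeR adjusted p = 5.5e-22), the largest of any member in either line at either time, and 1.84-fold in Nrf1-KO (log2 change 0.88, SE 0.0521, edgeR adjusted p = 2.3e-16). At 6 h the log2 changes were 0.51 in WT and 0.29 in Nrf1-KO. The stretch opposite Gm26745 makes the counts of Psmd9 uncertain by an amount that was not measured.

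Psmd10, also known as gankyrin, which binds the ATPase Psmc4, hardly moved. It was at 34.69, 32.36 and 33.88 CPM in WT DMSO, 37.08, 33.79 and 37.13 CPM at 6 h and 36.9, 39.27 and 37.37 CPM at 24 h. The Nrf1-KO libraries had 34.74, 34.05 and 35.94 CPM in DMSO, 37.57, 38.84 and 42.09 CPM at 6 h and 31.69, 34.84 and 39.51 CPM at 24 h. All 18 values lay between 31.69 and 42.09 CPM. The log2 difference was called in WT at 24 h (0.17, edgeR adjusted p = 0.011) and in Nrf1-KO at 6 h (0.16, edgeR adjusted p = 0.022), and each call was lost with upper-quartile scaling, with library size alone and with no filter (range over the alternatives 0.00763 to 0.599 and 0.00844 to 0.481). The WT call was also lost without WT replicate 2 at 24 h (edgeR adjusted p = 0.0682), and the Nrf1-KO call without Nrf1-KO DMSO replicate 2 (edgeR adjusted p = 0.0633), without Nrf1-KO replicate 3 at 6 h (edgeR adjusted p = 0.106) and with DESeq2 (adjusted p = 0.0637). In Nrf1-KO at 24 h the log2 difference of 0.016 was not called (edgeR adjusted p = 0.81), but with library size alone it was -0.17 and was called lower (edgeR adjusted p = 0.00994, range over the alternatives 0.00994 to 0.985).

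From 6 h to 24 h of CFZ, Pomp and Psmd9 rose in both lines and Psmg1, Psmg2 and Psmd5 fell in both. In WT these and the fall of Psmg4 made 2 higher and 4 lower of 8, beside 72.4% of all genes (36.9% higher and 35.4% lower). In Nrf1-KO Psmd10 was called lower in place of Psmg4, again 2 higher and 4 lower, beside 77% of all genes (38.7% higher and 38.3% lower). Psmd9 moved most upwards in WT (log2 change 1.01, 2.02-fold, edgeR adjusted p = 5.3e-17) and Psmg1 most downwards in both lines (log2 changes -0.80 in WT and -0.93 in Nrf1-KO). The call of Psmd10 (log2 change -0.15, edgeR adjusted p = 0.039, range over the alternatives 0.000805 to 0.178) was lost with DESeq2, with only the groups compared, and without replicate 2 or 3 of Nrf1-KO at 6 h or replicate 1 or 2 at 24 h (edgeR adjusted p = 0.0632, 0.149, 0.178 and 0.0655). Its value was -0.0933 without replicate 1 at 24 h and -0.24 without replicate 3 at 24 h.

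The lines were then compared within each treatment. In DMSO Pomp, Psmg1, Psmd5 and Psmd9 were higher in Nrf1-KO than in WT, 4 of 8, where 54.7% of all genes were called (25.7% higher and 29.1% lower). All 8 log2 differences were above 0 by edgeR, so 0 were lower, also at an unadjusted p under 0.05, and by DESeq2 0 were called lower. Those of Psmg4 (0.029, edgeR adjusted p = 0.83) and Psmd10 (0.057, edgeR adjusted p = 0.44) were close to no difference. That of Psmg4 turned below 0 without WT DMSO replicate 2 (-0.042) or Nrf1-KO DMSO replicate 2 (-0.0866). The share of all genes above 0 was not taken. The log2 differences were 0.33 for Pomp (SE 0.0494, edgeR adjusted p = 1.1e-06), 0.33 for Psmg1 (SE 0.0759, edgeR adjusted p = 0.00041), 0.15 for Psmd5 (SE 0.0389, edgeR adjusted p = 0.0018) and 0.40 for Psmd9 (SE 0.0602, edgeR adjusted p = 1.5e-06), and in each case the groups did not overlap. Those of Psmg2 and Psmg3, which were not called, did not overlap either. The share of all genes without overlap was not taken. Psmg2 lay just outside the threshold (log2 difference 0.13, edgeR adjusted p = 0.051) and was called in 14 of 26 alternatives, among them those without WT DMSO replicate 1 (edgeR adjusted p = 0.00755), without any 1 of the libraries of WT at 6 h or Nrf1-KO at 24 h, and without replicate 2 or 3 of Nrf1-KO at 6 h (edgeR adjusted p from 0.0256 to 0.0498). The 33 constitutive subunits stood the other way, with 29 called lower and 1, Psmd2, called higher in Nrf1-KO DMSO, and a median log2 difference of -0.29 beside 0.13 over the 5 chaperones of the 20S core, 0.15 over the 3 of the 19S base and -0.0173 over all genes.

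At 6 h of CFZ the order turned for Pomp and Psmd5. Pomp was at 0.539 times and Psmd5 at 0.501 times the WT level (log2 differences -0.89 and -0.998, edgeR adjusted p = 1.6e-15 and 5e-20), and Psmg3 was lower as well (log2 difference -0.21, edgeR adjusted p = 0.033, range over the alternatives 0.0115 to 0.355). Psmg1 and Psmd9 were higher in Nrf1-KO (log2 differences 0.37 and 0.17). These are 2 higher and 3 lower of 8, beside 61.3% of all genes (30.5% higher and 30.8% lower). Psmd9 lost its call without WT replicate 1 at 6 h or without Nrf1-KO replicate 3 at 6 h (edgeR adjusted p = 0.109 and 0.0906), and Psmg3 lost its call in 5 of 26 alternatives, among them those without WT replicate 1 and without Nrf1-KO replicate 1 at 6 h (edgeR adjusted p = 0.142 and 0.355), with a log2 difference of -0.11 in the latter. Psmd10 (log2 difference 0.12, edgeR adjusted p = 0.10) was called higher when scaled by library size alone (edgeR adjusted p = 0.0116) or by the upper quartile (edgeR adjusted p = 0.026).

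At 24 h of CFZ 4 of 8 members were lower in Nrf1-KO, beside 72% of all genes (35.6% higher and 36.4% lower). By edgeR 0 were called higher (1, Psmg1, at an unadjusted p under 0.05), and by DESeq2 0 were higher and 3 lower. Psmd5 stood at 0.385 times the WT level (log2 difference -1.38, SE 0.0413, edgeR adjusted p = 1.5e-23) and Pomp at 0.596 times (log2 difference -0.75, SE 0.0458, edgeR adjusted p = 1.6e-15). Psmd9 was lower by a smaller amount (log2 difference -0.25, SE 0.0482, edgeR adjusted p = 3.5e-05). The fourth, Psmg3, had groups that overlapped (log2 difference -0.18, edgeR adjusted p = 0.046, range over the alternatives 0.02 to 0.21), and its call was lost in 14 of 26 alternatives, among them those without WT DMSO replicate 1, any 1 WT replicate at 6 h, WT replicate 2 or 3 at 24 h, or Nrf1-KO replicate 1 or 2 at 24 h (edgeR adjusted p from 0.064 to 0.21). Psmg1 (log2 difference 0.24, edgeR adjusted p = 0.068) passed the test without WT replicate 2 at 24 h (0.0333), without Nrf1-KO replicate 3 at 6 h (0.0426), without Nrf1-KO replicate 3 at 24 h (0.0477), and with upper-quartile scaling, no filter or only the groups compared (0.0315 to 0.0464). Psmg2 (log2 difference -0.14, edgeR adjusted p = 0.091) passed it with library size alone (0.0403), and Psmd10 (log2 difference -0.10, edgeR adjusted p = 0.15) without Nrf1-KO replicate 3 at 24 h (0.0151).

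Whether CFZ acted differently in the lines was asked with the interaction, the log2 change in Nrf1-KO minus that in WT, for which both lines' DMSO groups are used at each time. At 6 h it was below 0 and called for Pomp, Psmg3, Psmd5 and Psmd9, 4 of 8, beside 38.3% of all genes (19.8% above and 18.4% below 0). At 24 h Psmg2 was called too, 5 of 8 below 0, beside 59.8% of all genes (29.7% above and 30% below 0). At each time 0 members were called above 0 by edgeR, also at an unadjusted p under 0.05, and 0 by DESeq2, which called 2 below 0 at 6 h and 4 at 24 h. For Psmd5 the interaction was -1.15 at 6 h (SE 0.0556, edgeR adjusted p = 5e-17) and -1.52 at 24 h (SE 0.0569, edgeR adjusted p = 2.6e-20), which ranked 207 and 227 from the lowest of 11762 genes. For Pomp it was -1.22 at 6 h (SE 0.0724, edgeR adjusted p = 6.9e-15) and -1.08 at 24 h (SE 0.0673, edgeR adjusted p = 7.6e-15), ranks 178 and 520. For Psmd9 it was -0.64 at 24 h (SE 0.0771, edgeR adjusted p = 1.6e-08).

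The other called interactions were smaller. Psmd9 at 6 h (-0.23, edgeR adjusted p = 0.039, range over the alternatives 0.0101 to 0.118) lost its call in 10 of 26 alternatives, among them those without replicate 2 or 3 of WT DMSO or of Nrf1-KO DMSO, WT replicate 3 at 6 h, or Nrf1-KO replicate 1 or 2 at 6 h (edgeR adjusted p from 0.0571 to 0.118). Psmg3 at 6 h (-0.32, edgeR adjusted p = 0.03, range 0.0123 to 0.172) lost it in 6, among them those without replicate 3 of WT DMSO or of Nrf1-KO DMSO, or replicate 1 of either line at 6 h (edgeR adjusted p from 0.0549 to 0.172), and its value was -0.21 without Nrf1-KO replicate 1 at 6 h. At 24 h Psmg3 (-0.28, edgeR adjusted p = 0.03, range 0.00585 to 0.0764) lost it in 9, among them those without WT DMSO replicate 1 or 3, WT replicate 2 or 3 at 24 h, Nrf1-KO DMSO replicate 3, or Nrf1-KO replicate 1 or 2 at 24 h (edgeR adjusted p from 0.0503 to 0.0764). Psmg2 at 24 h (-0.27, edgeR adjusted p = 0.013) was called in every alternative. Psmg2 at 6 h (-0.21, edgeR adjusted p = 0.063) passed the test in 6 alternatives, all of them without 1 library, the lowest without WT DMSO replicate 1 (edgeR adjusted p = 0.0123), the others without replicate 1 of WT or replicate 3 of Nrf1-KO at 6 h or any 1 Nrf1-KO replicate at 24 h. For Psmg1, Psmg4 and Psmd10 the interaction did not pass the test at either time, though that of Psmd10 at 24 h (-0.16, edgeR adjusted p = 0.12) did without Nrf1-KO replicate 3 at 24 h (-0.24, edgeR adjusted p = 0.00964) and with library size alone (-0.235, edgeR adjusted p = 0.0175). The 95% interval of the interaction of Psmg1 spanned -0.206 to 0.28 at 6 h and -0.369 to 0.181 at 24 h, and at 24 h that of Psmg4 ran from -0.11 to 0.535 and that of Psmd10 from -0.326 to 0.0112.

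**Figure D3:**
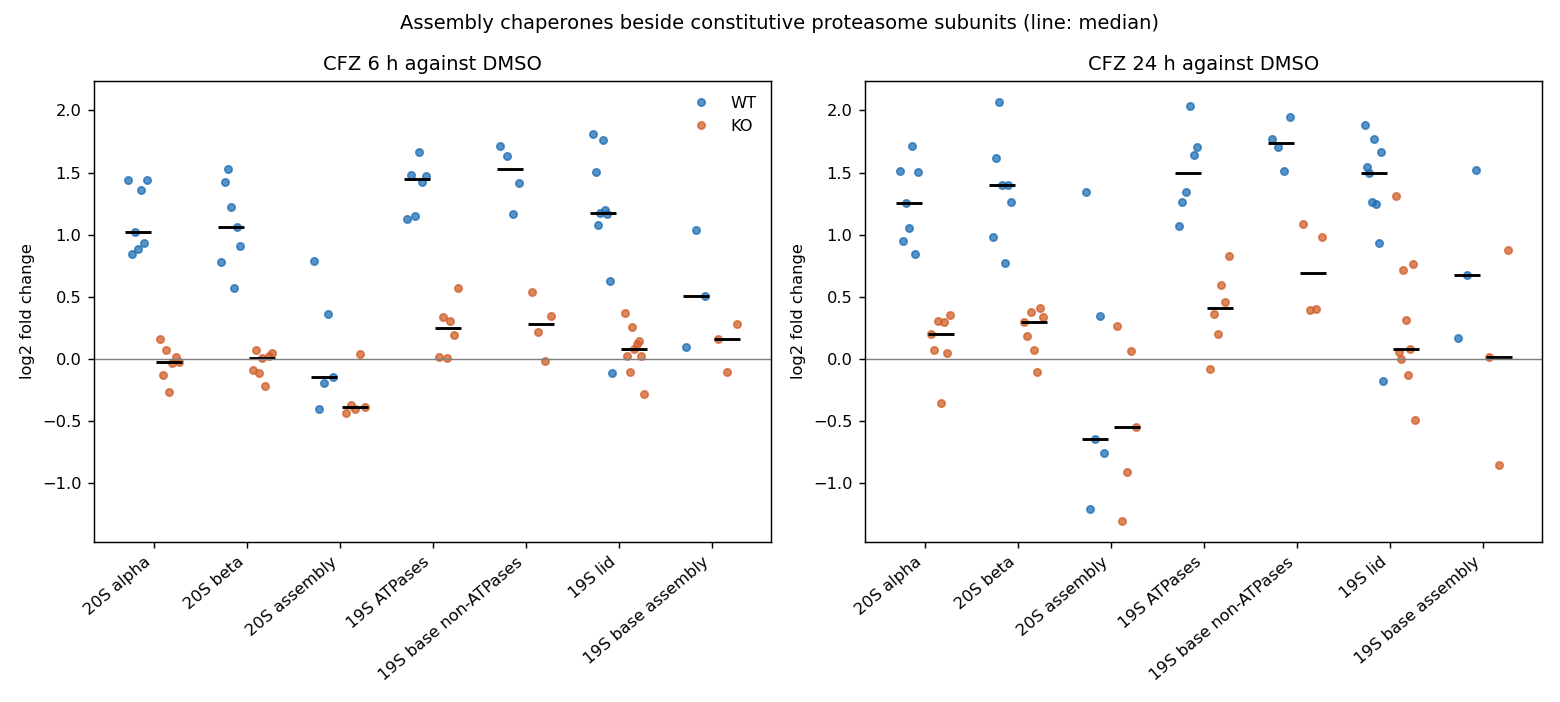
Log2 fold change of CFZ against DMSO (y axis) at 6 h and at 24 h for the chaperones and 5 lists of constitutive subunits, in WT (blue) and Nrf1-KO (orange) cells. Points are genes, and black lines are medians. In WT the medians of the 5 subunit lists lay between 1.02 and 1.53 at 6 h, while that of the 20S chaperones was -0.14 and that of the 19S chaperones 0.51.

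The subunits that the chaperones put together give the setting for these values. Of the 33 constitutive subunits, 32 rose in WT at 6 h and at 24 h, where 35.6% and 43.2% of all genes were called higher, with median log2 changes of 1.20 and 1.49, and Shfm1, a small subunit of the lid, was called lower each time (-0.11 and -0.18). The median over the 5 chaperones of the 20S core was -0.14 and -0.64 at these times, and that over the 3 of the 19S base 0.51 and 0.67, beside -0.0191 and 0.0232 over all genes. Among the chaperones, Pomp at 24 h in WT (1.34) lay within the range of the alpha subunits (0.85 for Psma6 to 1.71 for Psma5), whereas Psmg1, Psmg2, Psmg3 and Psmg4 lay below every subunit of the core. Psmd5 at 6 h in WT (1.04) lay below the lowest ATPase, Psmc1 (1.13). Psmd10 (0.10 at 6 h and 0.17 at 24 h) can be set beside Psmc4, the ATPase it binds, which had the largest change of the 6 ATPases (1.67 and 2.04).

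In Nrf1-KO cells the median log2 change of the 33 subunits was 0.0243 at 6 h and 0.31 at 24 h, with 13 called higher and 6 lower at 6 h and 23 higher and 4 lower at 24 h. The share of the subunits called higher at 6 h was near that over all genes, 34.5% of which were called higher and 35% lower, and at 24 h the shares over all genes were 44.4% and 41.1%. The median of the 20S chaperones was -0.39 and -0.55 at the same times, and that of the 19S chaperones 0.16 and 0.016, beside -0.00818 and 0.0304 over all genes. Psmd5 at 24 h (-0.85) lay below every one of the 33 subunits, of which Shfm1 was the lowest (-0.49). The interaction of the subunits had a median of -1.14 at 6 h and -1.11 at 24 h, and 32 and 33 of 33 were called below 0, beside 18.4% and 30% of all genes. Among the members, Pomp and Psmd5 lay near or below these medians, and the other 6 lay nearer to 0.

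A further list of 6 proteasome-associated factors, Psmf1, AI314180, Usp14, Uchl5, Txnl1 and Akirin2, had 6 called higher in WT at 6 h and at 24 h (35.6% and 43.2% of all genes), with medians of 0.735 and 1.0. In Nrf1-KO 5 of the 6 were higher at each time (34.5% and 44.4% of all genes), with medians of 0.26 and 0.15. The inhibitor Psmf1 rose in both lines at 24 h (1.19 in WT and 1.26 in Nrf1-KO), with an interaction of 0.06 that did not pass the test (edgeR adjusted p = 0.4). The deubiquitinase Usp14 had the lowest interaction of this list (-0.96 at 6 h and -1.33 at 24 h).

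**Figure D4:**
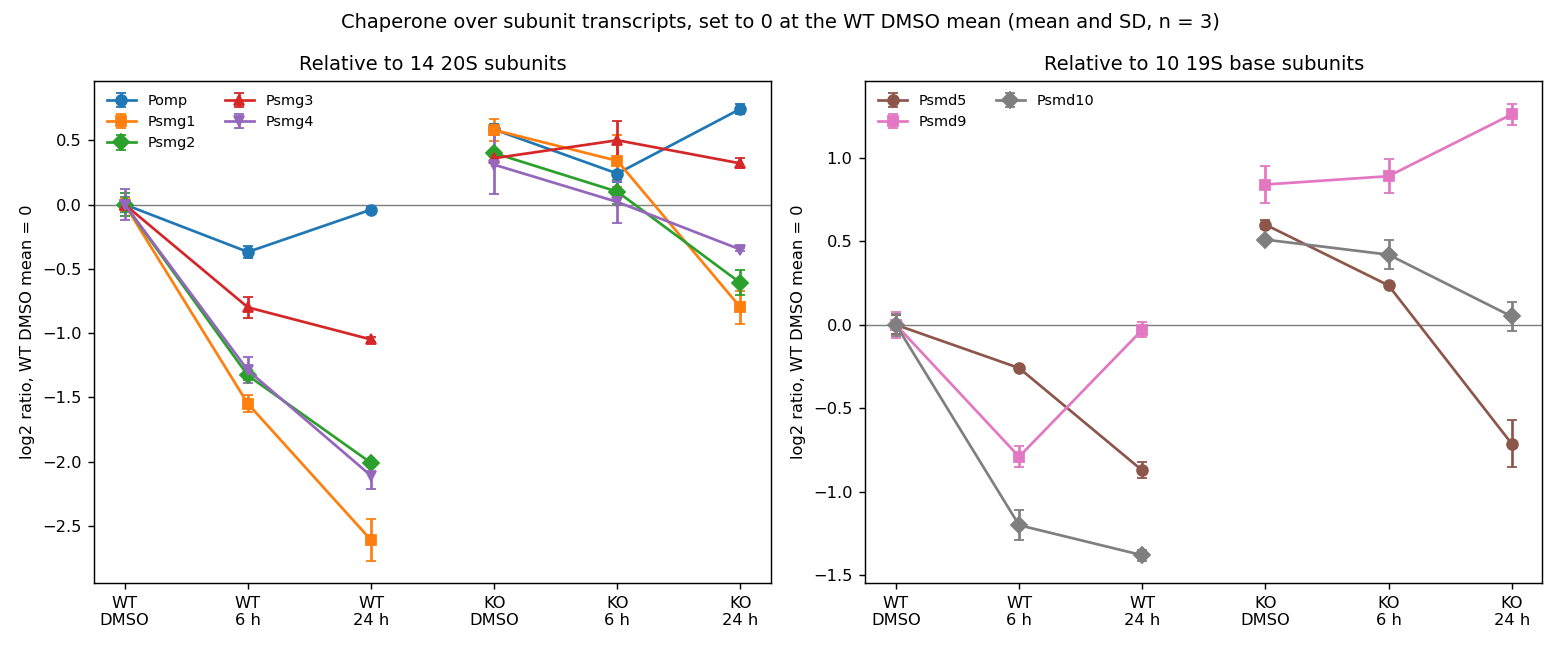
Log2 ratio of each chaperone to the median of its subunits (y axis, the mean of WT DMSO set to 0) in the 6 groups, with 14 core subunits as the reference for Pomp and Psmg1 to Psmg4 and 10 base subunits for Psmd5, Psmd9 and Psmd10. Points are means of 3 libraries and bars the SD. Psmg1 dropped furthest, to -2.61 in WT at 24 h. Psmd9 in Nrf1-KO at 24 h was the highest, at 1.26, beside 0.84 in Nrf1-KO DMSO.

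The ratio of each chaperone to its subunits was taken in every library, as the log2 CPM of the chaperone minus the median log2 CPM of the 14 alpha and beta subunits or of the 10 base subunits, and it is given relative to WT DMSO as a description with no test. In WT cells all 8 ratios were below their DMSO value at 6 h. The reference subunits themselves rose then, with median log2 changes of 1.02 (alpha), 1.07 (beta), 1.45 (ATPases) and 1.53 (other base subunits). Any gene that rose less than its reference has a lower ratio, and the median log2 change over all genes was -0.0191. Psmd5, which rose most of the members, ranked 469 from the highest of 11762 genes. The share of all genes with a lower ratio was not taken. At 24 h in WT Pomp (-0.04) and Psmd9 (-0.03) were back at the WT DMSO value, and Psmg1 (-2.61), Psmg4 (-2.11), Psmg2 (-2.01), Psmd10 (-1.38), Psmg3 (-1.05) and Psmd5 (-0.87) were below it. In Nrf1-KO DMSO all 8 ratios were above WT DMSO, from 0.31 for Psmg4 to 0.84 for Psmd9. The reference subunits were themselves lower there than in WT DMSO. The median log2 differences of their lists ran from -0.388 (ATPases) to -0.262 (alpha), and the share over all genes was not taken. At 24 h in Nrf1-KO the ratio, still relative to WT DMSO, was 0.74 for Pomp (0.58 in Nrf1-KO DMSO) and 1.26 for Psmd9 (0.84). It was -0.80 for Psmg1 (0.58 in Nrf1-KO DMSO), -0.71 for Psmd5 (0.60), -0.61 for Psmg2 (0.40) and -0.35 for Psmg4 (0.31). For Psmg3 it was 0.32 (0.36 in Nrf1-KO DMSO) and for Psmd10 0.05 (0.51). These values thus hold the difference between the untreated lines as well as the change under CFZ. The SDs within groups were 0.23 or less.

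Levels were also ordered within groups per kilobase of the principal transcript. In WT DMSO Pomp (45.7 CPM per kb) was followed by Psmg2 (23.6), Psmd10 (23.5) and Psmd5 (22.1), whose replicates overlapped each other, then by Psmg4 (16.6), Psmg1 (16.2) and Psmg3 (15.1), of which Psmg4 overlapped the other 2, and by Psmd9 (8.23). At 24 h in WT the order was Pomp (116), Psmd5 (35.1), Psmd10 (26.5), Psmd9 (23.7), Psmg3 (19.1), Psmg2 (15.1), Psmg4 (9.87) and Psmg1 (6.86), and no neighbours overlapped. In Nrf1-KO at 24 h Pomp (69 CPM per kb) came first, and Psmd5 (13.5) was sixth, with replicates that overlapped those of Psmg2 (13.8). Psmg1 was last in both lines at 24 h.

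**Figure D5:**
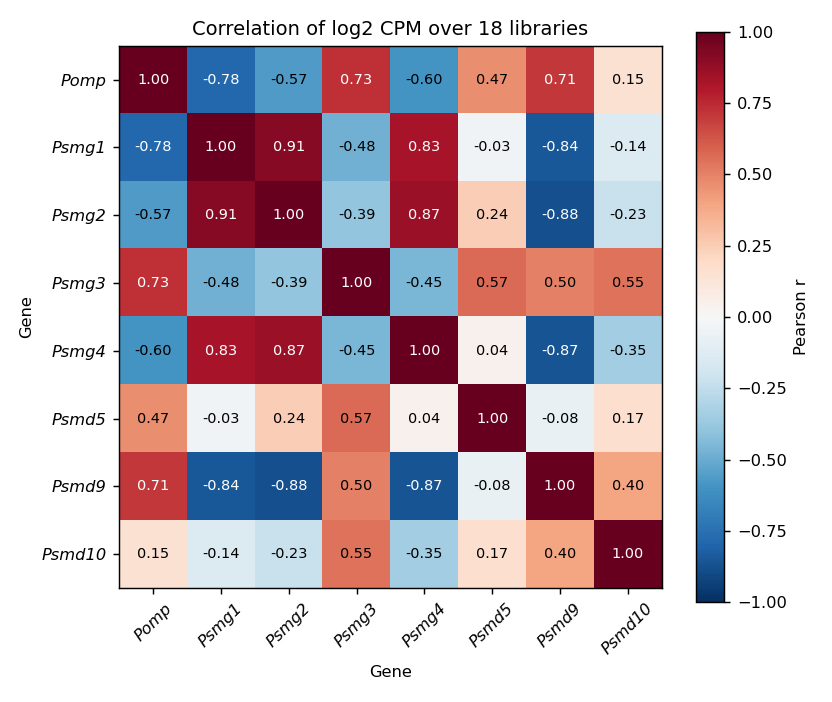
Pearson r (colour and number) of log2 CPM between each pair of the 8 chaperones over the 18 libraries. Psmg1, Psmg2 and Psmg4 form a block with r from 0.83 to 0.91, and their r with Psmd9 ran from -0.88 to -0.845.

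Over the 18 libraries, which come from 6 conditions, Pearson r of log2 CPM was 0.91 between Psmg1 and Psmg2, the partners of 1 dimer, and -0.45 between Psmg3 and Psmg4, the partners of the other. Psmg4 was most like Psmg2 among the members (0.87), and Pomp was most like Psmg3 (0.73) and least like Psmg1 (-0.78). The 3 genes of all those tested whose levels ran most like Pomp were Etnk1 (0.973), H2-Ke2 (0.971) and BC028528 (0.966). For Psmd5 they were Immt (0.977), Keap1 (0.970) and Smap2 (0.966), and for Psmd9 Cgref1 (0.984), Anapc7 (0.982) and Sumf1 (0.982). For Psmg1 they were Zfp523 (0.984), Eid2b (0.978) and Fastk (0.977), and for Psmg2 Glt8d1 (0.986), Spg7 (0.986) and S100a4 (0.983).

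The best matches of the other members were weaker for Psmd10 than for any other, with 0.743 for Mtrf1l, 0.735 for Snw1 and 0.735 for Adi1. Psmg3 was most like Tsr2 (0.847), Mrpl19 (0.841) and Cdc34 (0.840), and Psmg4 most like Lix1l (0.930), Ywhaz (0.927) and Medag (0.924). Among the 100 genes most like each member, 2 constitutive subunits were found for Pomp, 2 for Psmg3 and 0 for each of the other 6. Of all 11762 genes tested, 33 are such subunits. The median r with the 33 subunits was 0.839 for Pomp, 0.762 for Psmd5, 0.751 for Psmg3 and 0.421 for Psmd9, and it was -0.619 for Psmg1, -0.433 for Psmg4 and -0.338 for Psmg2. These are descriptions over libraries that share their treatments and lines.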

How the data were processed

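Per the labels and the study's methods, the authors prepared stranded mRNA libraries, sequenced paired reads on an Illumina HiSeq instrument and ran RNA Express, which combines STAR and DESeq2. The genome build, annotation, software versions and use of strand are not given in the sources used here. The deposited values are raw counts, whole reads per gene symbol without normalization. Of 23420 rows, 6577 were at 0 in every library and 4 had repeated, date-like names. Columns were matched to samples by the labels' descriptions, and 0 columns were left over.

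The counts were fitted with edgeR 4.0.16 in R 4.3.3 in 1 quasi-likelihood model of the 6 groups (expression filter with a minimum count of 10 and a minimum total of 15, TMM scaling, Benjamini-Hochberg adjustment over 11762 genes, threshold 0.05). There were 11 comparisons. The dispersion was low (common biological coefficient of variation 3.13%). Chi-square per degree of freedom between replicates ran from 1.438 to 8.469, so no pair was within sampling noise. The highest values were for replicates 1 and 3 of Nrf1-KO at 24 h (8.469) and of Nrf1-KO DMSO (5.504). In WT at 24 h the values ran from 1.462 to 1.604. The groups thus differed in spread, while the model shares its estimate of the spread over all groups. The fit was tested on simulated data. Depth had a median of 14419832 counts and limits precision most for members with few reads.

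The members, gene lists and named genes (all members, the targeted gene, the lowest and highest gene of each subunit list, and the 3 genes most alike by Pearson r of log2 CPM with a prior count of 2) were chosen with earlier results of these data known. The 33 subunits are 7 alpha, 7 beta, 6 ATPase, 4 other base and 9 lid genes. Coordinates and transcript lengths came from GENCODE M21 by symbol, and promoters from RefSeq. Alternatives changed 1 choice at a time, namely the tool (DESeq2 1.42.0), the scaling (upper-quartile, library size alone or RLE), the filter (none, or a mean count of at least 10), the samples in the fit (only the groups compared, or all but 1 library), a block for the replicate number and, for numbers of members called, a fold of at least 2.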

Additional observations from a re-analysis of the deposited data

Results flagged for a closer look

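The response to CFZ differed between the WT and Nrf1-KO lines by the test of the interaction itself for 4 of 8 members at 6 h and 5 of 8 at 24 h, beside 38.3% and 59.8% of all genes, and each called interaction was below 0. The number at 24 h is thus near the share over all genes, and 18.4% and 30% of all genes were called below 0. For Pomp the log2 change in Nrf1-KO minus that in WT was -1.22 at 6 h, where Pomp rose in WT (0.79) and fell in Nrf1-KO (-0.43), and -1.08 at 24 h, where it rose in both (1.34 and 0.26). For Psmd5 it was -1.15 and -1.52, with a rise in WT (1.04 and 0.67) and a fall in Nrf1-KO (-0.11 and -0.85) at both times. For Psmd9 it was -0.23 at 6 h and -0.64 at 24 h. For Psmg3 it was -0.32 at 6 h and -0.28 at 24 h, and for Psmg2 it was -0.27 at 24 h. The interactions of Pomp and Psmd5 at both times, and those of Psmd9 and Psmg2 at 24 h, passed the test in each of the 26 alternatives. No group held more than 3 libraries, so single libraries were not tested as outliers.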

How the results depend on the processing

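Of 88 results for single members, 61 were called, of which 48 were called in each of 26 alternatives and 0 reversed. Of 2288 alternative values, 2151 kept their direction and their side of the threshold. With library size alone the median log2 change of all genes from DMSO moved by over 0.1 in both lines at both times. It went to -0.151 at 6 h and -0.0796 at 24 h in WT, and to -0.12 and -0.151 in Nrf1-KO. Upper-quartile scaling moved it by over 0.1 in WT at 6 h (to -0.128) and 24 h (to -0.112) and in Nrf1-KO at 24 h (to -0.0771). The cause of a change was not tested except where fewer libraries or a minimum fold make it.

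With a minimum of 2-fold, members higher and lower numbered 1 and 0 in WT after 6 h (beside 3.98% and 5.65% of all genes), 2 and 1 in WT after 24 h (10.5% and 14.5%), 1 and 0 from 6 h to 24 h in WT (5.16% and 6.92%), 0 and 0 in Nrf1-KO at 6 h (3.3% and 4.26%), 0 and 1 in Nrf1-KO at 24 h (11.5% and 15.2%), and 0 and 0 from 6 h to 24 h in Nrf1-KO (6.56% and 9.22%). Between the lines 0 were higher in DMSO (3.2%), 0 and 0 were higher and lower at 6 h (4.31% and 3%) and 1 was lower at 24 h (5.53%), and the interaction was below 0 for 2 at 6 h (1.57%) and 2 at 24 h (4.53%). In Nrf1-KO at 6 h only 1 member was higher with DESeq2, upper-quartile scaling, library size alone and no filter, and at 24 h only 1 with library size alone. Between the lines at 24 h 1 member was higher with upper-quartile scaling, no filter or only the groups compared. The interaction at 6 h was below 0 for 2 with DESeq2 and with upper-quartile scaling.

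With upper-quartile scaling the medians of the 20S and 19S chaperones were -0.25 and 0.40 in WT at 6 h, -0.78 and 0.54 in WT at 24 h, then -0.46 and 0.0886 in Nrf1-KO at 6 h and -0.66 and -0.0925 in Nrf1-KO at 24 h, and the 19S median between the lines at 6 h was 0.17. With library size alone they were -0.27 and 0.38 in WT at 6 h, -0.75 and 0.57 in WT at 24 h, then -0.50 and 0.0499 in Nrf1-KO at 6 h, -0.73 and -0.17 in Nrf1-KO at 24 h, -0.23 and -0.22 from 6 h to 24 h in Nrf1-KO, -0.14 and 0.19 between the lines at 6 h, and -0.35 and -0.72 for the interaction at 24 h, and the 19S median between the lines in DMSO was 0.20. With no filter the 19S median was 0.11 in Nrf1-KO at 6 h, -0.0341 in the same line at 24 h and 0.62 in WT at 24 h.

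Differences not called in the report turned in sign for Psmd10 in WT at 6 h (-0.0134 with upper-quartile scaling, -0.0363 with library size alone) and in Nrf1-KO at 24 h (-0.0925 with upper-quartile scaling, -0.17 with library size alone, where it was called lower with an edgeR adjusted p of 0.00994, -0.0341 with no filter and -0.0209 with only the groups compared), and for Psmg3 from 6 h to 24 h in WT (0.011 with library size alone), in Nrf1-KO at 6 h (-0.0303 with upper-quartile scaling, -0.0693 with library size alone, -0.0056 with no filter), at 24 h (-0.0457 and -0.12) and from 6 h to 24 h (-0.0154 and -0.0514).

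With each library left out in turn, members lower numbered 1 to 2 in WT at 6 h and 3 to 5 in Nrf1-KO at 6 h, members higher 1 to 2 in Nrf1-KO at 6 h and, between the lines, 1 to 2 at 6 h and 0 to 1 at 24 h, and interactions below 0 at 6 h 2 to 5. Members higher also numbered 4 to 5 in WT at 24 h and 4 to 5 in Nrf1-KO against WT in DMSO. Between the lines, members lower numbered 2 to 3 at 6 h and 3 to 5 at 24 h. From 6 h to 24 h in Nrf1-KO members lower numbered 3 to 4, and interactions below 0 at 24 h numbered 4 to 6. The 20S median ran from -0.20 to -0.0695 in WT at 6 h, from -0.65 to -0.43 in Nrf1-KO at 24 h, from -0.25 to -0.11 from 6 h to 24 h in Nrf1-KO, from 0.0944 to 0.20 between the lines in DMSO, from -0.25 to -0.11 between them at 6 h and from -0.34 to -0.16 for the interaction at 6 h. The 19S median ran from 0.60 to 0.70 in WT at 24 h, from -0.00498 to 0.0915 from 6 h to 24 h in WT (as did Psmd10 itself), from -0.10 to 0.0495 in Nrf1-KO at 24 h (as did Psmd10), from -0.24 to -0.0933 from 6 h to 24 h in Nrf1-KO, from 0.0717 to 0.16 between the lines at 6 h, from -0.29 to -0.19 for the interaction at 6 h and from -0.70 to -0.61 for that at 24 h. Psmg3 ran from -0.0871 to 0.00441 from 6 h to 24 h in WT, from -0.0362 to 0.15 in Nrf1-KO at 6 h, from -0.0345 to 0.0882 at 24 h and from -0.088 to 0.0995 from 6 h to 24 h. Psmg4 ran from -0.0866 to 0.13 between the lines in DMSO, and the interactions at 6 h from -0.070 to 0.12 for Psmg1 and from -0.00309 to 0.10 for Psmd10.

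The labels number the replicates 1 to 3 in each group and name no shared batch. Over 45 pairs of libraries with the same number, the correlation of deviations from the group means ran from -0.0494 to 0.0972 (mean 0.0136), beside a mean of -0.00678 for different numbers. Of the 18 libraries, 9 correlated best with their own number. These values are small and do not settle whether the numbers pair libraries. The main fit treated the libraries as unpaired. A block for the replicate number changed 1 of 88 calls, that of Psmg3 between the lines at 24 h (edgeR adjusted p = 0.0525).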
